A study of Mus musculus with 30 samples.

Results

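The suprabasal keratins described here are 7 genes, matched by Ensembl identifier among the 55487 genes in the deposited table of read counts from mouse oral tissue. Krt4, Krt13 and Krt76 are keratins of oral mucosa, Krt1, Krt2 and Krt10 are keratins of cornifying epidermis, and Krt42 is a type I keratin encoded next to Krt17. Of the 7, 6 had enough counts to be tested, and Krt2 did not. The 30 samples were called Normal (n = 3, codes D01 to D03), hyperplasia (HYP, n = 8, A01 to A08), dysplasia (DYS, n = 7, B01 to B07), carcinoma in situ (CIS, n = 6, C01, C02, C04, C07, C10 and C11) and invasive carcinoma (ICA, n = 6, C03, C05, C06, C08, C09 and C12). The labels describe 1 protocol for all 5 stages: male C57BL/6J mice aged 6 weeks were given 4NQO, a carcinogen that forms DNA adducts, in drinking water at 100 ug/mL for 10 weeks. They do not say whether the Normal samples came from mice that drank it, and they name the tissue of all 30 samples, Normal included, as oral squamous cell carcinoma. Where in the mouth each piece was taken, and whether each sample is a separate mouse, is not given in the labels; the p-values therefore describe sample-to-sample spread, which may be partly technical.

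Keratins are the intermediate filament proteins of epithelial cells, and a filament is built from pairs of a type I and a type II chain. Basal cells of stratified epithelium make Krt5 (type II) with Krt14 (type I), and cells that leave the basal layer change to a suprabasal pair that depends on the site. In the soft lining of the cheek, the underside of the tongue and the oesophagus that pair is Krt4 (type II) with Krt13 (type I). The firmer masticatory surface of palate and gingiva makes Krt76 (type II), and epidermis makes Krt1 (type II) with Krt10 (type I), with Krt2 (type II) in its upper layers. Krt1 and Krt10 were also counted in the oral tissue studied here, so the term epidermal-type does not place them in skin. Type I genes lie in a cluster on mouse chromosome 11 and type II genes in a cluster on chromosome 15. In GRCm38 coordinates with GENCODE M21 annotation, Krt10 spans chr11:99385254-99389364 (ENSMUSG00000019761.10), Krt13 chr11:100117327-100121566 (ENSMUSG00000044041.4) and Krt42 chr11:100262882-100269871 (ENSMUSG00000053654.7). Krt2 spans chr15:101810689-101818169 (ENSMUSG00000064201.8), Krt1 chr15:101845426-101850794 (ENSMUSG00000046834.7), Krt76 chr15:101884351-101892920 (ENSMUSG00000075402.1) and Krt4 chr15:101918535-101924735 (ENSMUSG00000059668.6). All 7 genes are on the minus strand.

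The libraries held 17725604 to 28023098 counts. The letter of the sample code separates the stages other than CIS and ICA, which share the letter C, so for every other comparison anything that went with the letter cannot be told apart from the stage. The tissue was mixed. The summed level of 15 skeletal muscle genes was 59781 to 80040 CPM (read counts scaled to a common library total) in Normal, 38732 to 68798 in HYP, 28765 to 52668 in DYS, 29144 to 50423 in CIS and 17572 to 43324 in ICA. Over the same stages the median summed level of 10 keratinocyte genes other than keratins was 5685, 6948, 8338, 8815 and 8967 CPM, that of 12 leukocyte genes 61.9, 111, 780, 1851 and 4277 CPM, and that of 15 salivary gland genes ranged from 7.98 to 33399 CPM between samples. In such bulk tissue, fewer cells of a type and less RNA per cell cannot be told apart. Fits with the muscle or the keratinocyte score (the mean log2 CPM of those genes) as a covariate are therefore given beside the results they touch. Both scores moved with stage. In ICA against Normal, 8 of 10 keratinocyte genes were higher (23.4% of all genes) and 13 of 15 muscle genes lower (22.7%), at an edgeR adjusted p under 0.05. Such a fit can thus also take away part of a stage difference, and tissue make-up and stage cannot be told apart by it.

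Promoters are shown for Krt10 and Krt76, which had lower levels in both carcinoma stages. That of Krt13, called in no comparison by the edgeR fit of all 30 samples, is shown too. No link between these letters and the levels was tested. The sequences are the 250 bases before the start of the gene in RefSeq (GRCm38.p6), written 5' to 3' on the coding strand, and capitals mark the core promoter box with the letters TATAAA in Krt10 and Krt76 and the AP-1 motif, TGANTCA, in Krt13.
Krt10, chr11:99389365-99389614, minus strand: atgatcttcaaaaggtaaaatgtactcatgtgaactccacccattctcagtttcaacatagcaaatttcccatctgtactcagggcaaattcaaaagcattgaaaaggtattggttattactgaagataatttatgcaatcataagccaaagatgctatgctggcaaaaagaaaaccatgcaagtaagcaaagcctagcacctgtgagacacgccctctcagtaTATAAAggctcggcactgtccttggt
Krt76, chr15:101892921-101893170, minus strand: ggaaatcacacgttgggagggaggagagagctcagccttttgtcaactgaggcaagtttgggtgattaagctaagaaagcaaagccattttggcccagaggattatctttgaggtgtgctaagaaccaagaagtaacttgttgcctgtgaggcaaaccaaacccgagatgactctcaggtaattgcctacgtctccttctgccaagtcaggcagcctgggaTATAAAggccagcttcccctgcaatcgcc
Krt13, chr11:100121567-100121816, minus strand: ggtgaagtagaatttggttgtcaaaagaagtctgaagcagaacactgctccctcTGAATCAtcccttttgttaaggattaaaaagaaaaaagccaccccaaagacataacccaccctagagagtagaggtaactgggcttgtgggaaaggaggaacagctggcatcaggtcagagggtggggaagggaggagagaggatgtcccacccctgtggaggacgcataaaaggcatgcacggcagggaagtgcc
TATAAA on either strand was in 12.4% of 32851 RefSeq promoters cut to the same 250 bases, and it began 26 bases before the start of Krt10 and 29 bases before that of Krt76. TGANTCA was in 6.75% of those promoters, and it began 196 bases before the start of Krt13. A second RefSeq start of Krt13 had 2 matches to TGANTCA, and the windows of Krt2 and Krt42 held neither motif. Also searched on both strands were CACCC (in 52.0% of promoters), the E box CANNTG (66.2%) and TTNNGNAA (36.8%), which were left unmarked. Krt1 and Krt4 had no entry. Only the letters as given were searched, so a near form such as cataaaagg in Krt13 was not counted. These are matches of letters and not measured sites.

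Each gene was tested with edgeR's quasi-likelihood test on all 30 samples, and p-values were adjusted by the Benjamini-Hochberg method over the 17638 genes tested; a call is an adjusted p under 0.05, and errors of log2 fold changes are standard errors. Of the 6 keratins tested, 5 passed the test for any difference among the 5 stages, which 53.2% of all genes passed; Krt13 did not (adjusted p = 0.161). Against Normal, 1 of the 6 was called higher in HYP (Krt1; 8.22% of all genes were called higher) and 0 lower (6.07%). In DYS it was again 1 higher (Krt1; 13.3% of all genes) and 0 lower (12.4%). In CIS 1 was higher (Krt1; 19.4% of all genes) and 2 were lower (Krt76 and Krt10; 18.2%). In ICA 1 was higher (Krt1; 23.4% of all genes) and 3 were lower (Krt76, Krt10 and Krt4; 22.7%). Against HYP, Krt1 and Krt42 were higher in DYS (2 of 6; 2.99% of all genes) with 0 lower (2.19%), Krt1 and Krt42 were higher in CIS (2 of 6; 10.6%) and Krt76 lower (1 of 6; 8.39%), and Krt1 and Krt42 were higher in ICA (2 of 6; 19.1%) and Krt76 lower (1 of 6; 19.2%). Against DYS, 0 were higher in CIS (2.99% of all genes) and Krt76 and Krt10 were lower (2 of 6; 2.47%), and 0 were higher in ICA (11.1%) and Krt4, Krt76 and Krt10 were lower (3 of 6; 8.53%). Counted by levels that do not overlap, Krt1 lay above Normal in every sample of the 4 later stages (1 of 6), as did 9.13% of all genes in HYP, 11.6% in DYS, 14.1% in CIS and 17.2% in ICA. Krt76 and Krt10 lay below Normal in every sample of CIS and of ICA (2 of 6), as did 12.5% and 15.2% of all genes, and none of the 6 did so in HYP or DYS (5.52% and 8.95%). Comparisons with Normal share the same 3 Normal samples and those with HYP the same 8 HYP samples, so their counts are not independent of each other.

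Krt4 and Krt13, the pair of the soft lining, were among the most abundant transcripts of these libraries and together made up 3.82% of all counts in Normal and 3.31% in ICA on average. Krt13 stood at 18046, 22745 and 26911 CPM in the 3 Normal samples. Its lowest, median and highest levels were 20142, 25028 and 28096 CPM in HYP, 19303, 28597 and 31278 in DYS, 16151, 20887 and 31492 in CIS, and 15673, 22675 and 24943 in ICA. All stages overlapped. The log2 difference from Normal was 0.12 ± 0.18 in HYP, 0.29 ± 0.19 in DYS, -0.02 ± 0.19 in CIS and -0.09 ± 0.19 in ICA (edgeR's quasi-likelihood test, adjusted p = 0.708, 0.262, 0.935 and 0.725). For ICA the 95% interval of the difference ran from -0.46 to 0.28. The lowest p for Krt13 was that of ICA against DYS, at -0.38 ± 0.15 (adjusted p = 0.0706), which DESeq2 called at -0.38 (adjusted p = 0.0405), limma-voom with sample weights at -0.48 (0.00805) and edgeR without DYS sample B01, the lowest of its stage, at -0.45 (0.0341).

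Krt4 stood at 14474, 18642 and 23249 CPM in Normal. Its lowest, median and highest levels were 11128, 14563 and 20875 CPM in HYP, 12074, 20490 and 21359 in DYS, 9148, 12844 and 23079 in CIS, and 7654, 11408 and 16616 in ICA. In ICA 5 of 6 samples lay below every Normal sample. Krt4 was lower in ICA than in Normal by a log2 of -0.71 ± 0.25 (1.64-fold, adjusted p = 0.023) and than in DYS by -0.70 ± 0.21 (1.63-fold, adjusted p = 0.019). The first of these lost its call without Normal sample D01 or D03 or ICA sample C06 or C12 (adjusted p = 0.0542, 0.151, 0.0512 and 0.0507) and in a fit of the ICA and Normal samples alone (0.0529), and the second without C06 (0.0569) or with the keratinocyte score as a covariate (0.0664). With the muscle score as a covariate the ICA difference from Normal was -0.46 (adjusted p = 0.353), and with the keratinocyte score -0.50 (0.399). The order of mean levels was Normal, DYS, HYP, CIS and ICA, and no 2 neighbours in it differed by the test (adjusted p 0.306 to 0.984).

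Within samples the 2 partners tracked each other. Across the 30 samples Pearson's r of their log2 CPM was 0.85 (Spearman's rho 0.86), and 0.90 after removing the stage means; the points share libraries, and the samples differ in how much epithelium they hold. Per 1000 CPM of Krt13 there were 802, 820 and 864 of Krt4 in the Normal samples, 530 to 772 in HYP, 556 to 733 in DYS, 474 to 733 in CIS and 463 to 671 in ICA. Every sample of the other 4 stages thus had less Krt4 for its Krt13 than any Normal sample. Per kilobase of the longest coding transcript, Krt4 stood at 64.2 ± 2.5 (SD, n = 3) for every 100 of Krt13 in Normal and at 41.5 ± 6.0 (SD, n = 6) in ICA. No test was run on this ratio or on those that follow.

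Krt76, the type II keratin of masticatory mucosa, fell with the carcinoma stages. It stood at 1909, 2570 and 2721 CPM in Normal. Its lowest, median and highest levels were 1123, 1444 and 1954 CPM in HYP, 937, 1544 and 2463 in DYS, 172, 548 and 1196 in CIS, and 226, 597 and 1056 in ICA. All 6 CIS and all 6 ICA samples lay below every Normal sample. All 6 ICA samples also lay below every HYP sample, and the share of all genes that did so was not counted. Krt76 fell from Normal by 1.87 ± 0.43 on the log2 scale in CIS (3.66-fold, adjusted p = 0.00159) and by 1.99 ± 0.43 in ICA (3.98-fold, adjusted p = 0.00055). Against HYP the differences were -1.20 ± 0.35 in CIS and -1.32 ± 0.35 in ICA (adjusted p = 0.0185 and 0.00491), and against DYS -1.28 ± 0.36 and -1.39 ± 0.36 (adjusted p = 0.0361 and 0.0104). The premalignant stages had lower means than Normal, but neither difference was called (HYP -0.67 ± 0.41, adjusted p = 0.285; DYS -0.60 ± 0.42, adjusted p = 0.314).

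Among neighbours in the order of mean Krt76 (Normal, DYS, HYP, CIS, ICA), HYP and CIS were the only ones that differed by the test. The CIS and ICA differences from Normal were -1.76 and -1.79 with the muscle score as a covariate (adjusted p = 0.0136 and 0.0342), and -1.52 and -1.56 with the keratinocyte score (0.0861 and 0.115). Those from HYP were not called with either score (-0.98 to -1.175, adjusted p 0.0572 to 0.191). The CIS difference from HYP lost its call without C02 (adjusted p = 0.0576), and that from DYS when any 1 of B02, B03, B05, B06, B07, C02, C07, C10 or C11 was left out (adjusted p up to 0.096). Krt76 fell further than its neighbour gene Krt4. Per 1000 CPM of Krt4 there were 111 to 146 of Krt76 in Normal, 67.7 to 128 in HYP, 45.7 to 127 in DYS, 18.9 to 63.6 in CIS and 27.8 to 64.4 in ICA. In this ratio no carcinoma sample reached the lowest HYP sample, and among the DYS samples B04 alone lay within the carcinoma range. Krt76 also varied most between samples of a stage in carcinoma, with a coefficient of variation of 18.0% in Normal, 20.2% in HYP, 34.1% in DYS, 64.0% in CIS and 53.1% in ICA.

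Krt1 and Krt10, which form 1 filament pair in epidermis, moved in opposite directions in carcinoma. Krt1 was scarce in Normal, at 7.49, 7.91 and 12.9 CPM. Its lowest, median and highest levels were 12.9, 34.8 and 96.9 CPM in HYP, 40.3, 180 and 362 in DYS, 51.1, 84.0 and 158 in CIS, and 76.2, 107 and 216 in ICA. Every sample of the other 4 stages lay above every Normal sample, although HYP sample A01 was only just above Normal sample D01. Krt1 was higher than in Normal by a log2 of 2.13 ± 0.63 in HYP (4.39-fold, adjusted p = 0.0254), 4.34 ± 0.72 in DYS (20.3-fold, adjusted p = 0.00032), 3.40 ± 0.69 in CIS (10.5-fold, adjusted p = 0.00072) and 3.74 ± 0.70 in ICA (13.4-fold, adjusted p = 0.00019). The HYP call was lost without D02 or D03 (adjusted p = 0.144 and 0.0961), without the filter on low counts (0.052) and in a fit of the HYP and Normal samples alone (0.0611).

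Krt1 also differed between HYP and the later stages. It was higher than in HYP by 2.21 ± 0.43 in DYS (adjusted p = 0.00268; 6 of 7 samples above every HYP sample), 1.26 ± 0.43 in CIS (0.0406; 2 of 6) and 1.61 ± 0.43 in ICA (0.00526; 3 of 6). The CIS difference lost its call in 10 of the 30 fits that left out 1 sample (without A01, A02, A03, A04, A06, A07, C02, C07, C10 or C11, adjusted p up to 0.11), in a fit of the CIS and HYP samples alone (0.062) and without the filter on low counts (0.0842). DYS, ICA and CIS, the 3 highest stages in that order, did not differ among themselves by the test (adjusted p 0.204 to 0.876), and for CIS against DYS the 95% interval of the log2 difference was -1.83 to -0.06 before adjustment over genes. With the muscle score as a covariate the differences from Normal were 1.79 in HYP, 3.43 in DYS, 2.54 in CIS and 2.51 in ICA, all called (adjusted p 0.0059 to 0.0384). With the keratinocyte score they were 1.71, 3.34, 2.13 and 2.22, of which those of CIS and ICA missed the threshold (adjusted p = 0.0523 and 0.0585). Against HYP, the ICA difference was 0.71 with the muscle score and 0.51 with the keratinocyte score (adjusted p = 0.404 and 0.608), and the CIS difference 0.75 and 0.42 (0.323 and 0.691).

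Krt10, the type I partner, started from a higher level and was lower in carcinoma. It stood at 499.0, 568.2 and 591.6 CPM in Normal, and its lowest, median and highest levels were 273, 348 and 502 CPM in HYP, 226, 492 and 704 in DYS, 202, 277 and 441 in CIS, and 187, 275 and 360 in ICA. All 6 CIS and all 6 ICA samples lay below every Normal sample. Krt10 fell from Normal by 0.89 ± 0.26 on the log2 scale in CIS (1.86-fold, adjusted p = 0.00931) and by 0.99 ± 0.26 in ICA (1.98-fold, adjusted p = 0.00328). Against DYS it fell by 0.77 ± 0.22 in CIS and by 0.87 ± 0.22 in ICA (adjusted p = 0.0348 and 0.00829). The CIS difference from DYS lost its call when any 1 of B02, B03, B04, B06, B07, C02, C07 or C11 was left out (adjusted p up to 0.116). In HYP 7 of 8 samples lay below every Normal sample, with a log2 difference of -0.59 ± 0.25 that was not called (adjusted p = 0.114). DYS stood above HYP by 0.47 ± 0.20, not called (0.17), and without B01 by 0.60, called (0.034). No 2 neighbours in the order of means (Normal, DYS, HYP, CIS, ICA) differed by the test (adjusted p 0.17 to 0.934). The carcinoma differences from Normal were larger with either score as a covariate: -1.16 in CIS and -1.39 in ICA with the muscle score (adjusted p = 0.00662 and 0.00627), and -1.20 and -1.34 with the keratinocyte score (0.0257 and 0.0225).

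The ratio of the epidermal partners shifted accordingly. Per 1000 CPM of Krt10 there were 13.4, 15.01 and 22.7 of Krt1 in the Normal samples, 44.3 to 344 in HYP, 156 to 735 in DYS, 188 to 533 in CIS and 212 to 779 in ICA, so that every other sample lay above every Normal one. Per kilobase of the longest coding transcript, Krt1 reached 1.45 ± 0.42 (SD, n = 3) for every 100 of Krt10 in Normal, 10.3 ± 8.9 (SD, n = 8) in HYP, 31.8 ± 17.1 (SD, n = 7) in DYS, 29.1 ± 11.3 (SD, n = 6) in CIS and 40.9 ± 18.0 (SD, n = 6) in ICA. Krt10 remained the more abundant of the 2 in every sample on that scale, where the highest value was 66.5 for every 100. Across the 30 samples the log2 CPM of Krt1 and Krt10 had an r of -0.06 (rho -0.01), and 0.36 after removing the stage means, against 0.85 and 0.90 for Krt4 with Krt13.

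**Figure D1:**
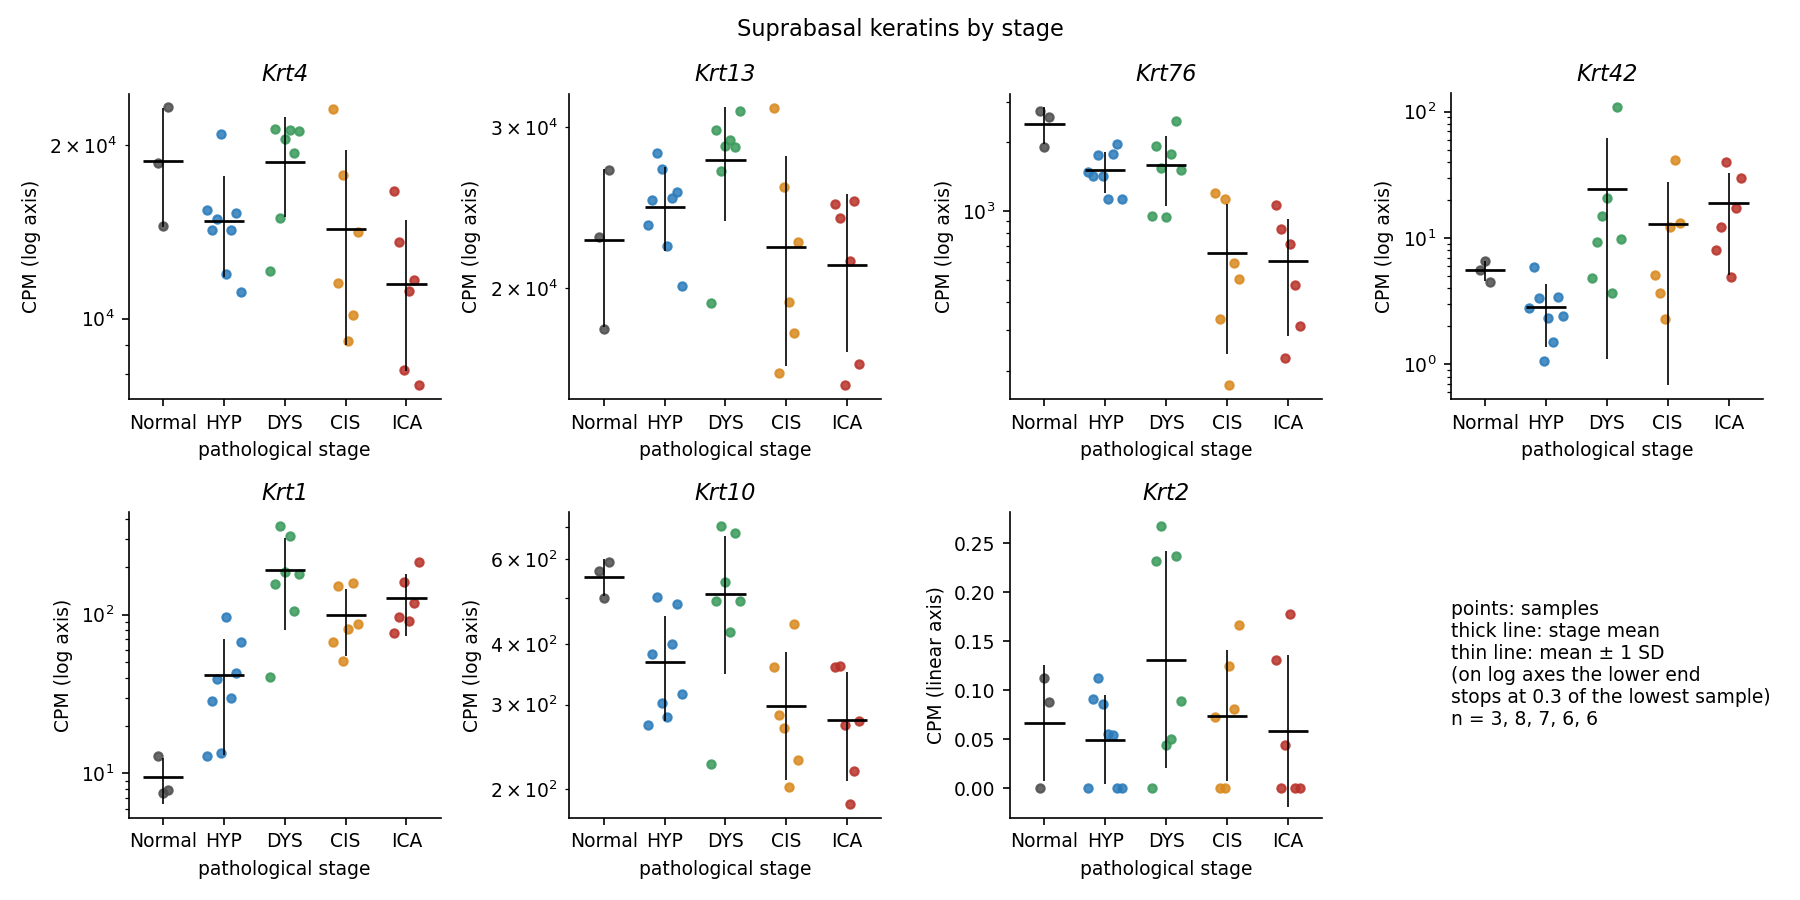
Level of each of the 7 keratins in the 30 samples by stage, in CPM (log axes except for Krt2), with the stage mean and 1 SD. Krt1 lies above Normal in all later samples, Krt76 and Krt10 lie below Normal in all 12 carcinoma samples, and Krt13 overlaps in all stages.

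Krt2, the late epidermal keratin, was at the edge of detection. The 30 libraries held 54 counts of it in all, with at most 6 in any library and 10 libraries at 0. There were 4 counts in Normal, 9 in HYP, 21 in DYS, 11 in CIS and 9 in ICA. A library at 0 allows a level of up to 3 counts, or 0.107 to 0.169 CPM depending on its depth, and no stage mean was above 0.132 CPM. The other 2 epidermal-type keratins were measured at stage means of 9.43 to 191 CPM (Krt1) and 279 to 553 CPM (Krt10). Krt77, the gene between Krt1 and Krt76, had 32 counts in all. Of 13 markers of hair follicle inner sheath and sebaceous gland, 5 had enough counts to be tested. The inner sheath keratins Krt25, Krt27, Krt28, Krt71, Krt72 and Krt74 added up to at most 0.536 CPM in any sample, Krt73 reached 4.82 CPM, and Tchh (trichohyalin), which tongue papillae also make, reached 2933 CPM and was most of that list's summed level.

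Krt42, a type I keratin described in nail, was low, and of the 6 keratins tested it varied most between samples of a stage in DYS, CIS and ICA (coefficient of variation 152%, 113% and 72.9%). It stood at 4.53, 5.58 and 6.59 CPM in Normal, and its lowest, median and highest levels were 1.07, 2.59 and 5.86 CPM in HYP, 3.65, 9.83 and 108 in DYS, 2.27, 8.63 and 41.5 in CIS, and 4.94, 14.8 and 40.2 in ICA. DYS sample B06 alone carried 2738 of its 9388 counts. Against HYP it was higher by a log2 of 3.11 ± 0.70 in DYS (5 of 7 samples above every HYP sample, adjusted p = 0.0094), 2.19 ± 0.71 in CIS (3 of 6, 0.0324) and 2.72 ± 0.71 in ICA (5 of 6, 0.0045). Without B06 the DYS difference was 1.90 (adjusted p = 0.0671), and without C10 the CIS difference was 1.36 (adjusted p = 0.181). The CIS call was also lost without A01, A04, A06 or C07 (adjusted p 0.052 to 0.06). No stage was called against Normal (adjusted p 0.107 to 0.503). With the muscle or the keratinocyte score as a covariate the 3 differences from HYP were 0.97 to 1.93 and none was called (adjusted p 0.166 to 0.57). The coding sequence of Krt42 is close to those of its neighbours Krt17 and Krt16, and how the submitters' counting treated reads that fit several genes is not given in the sources used here, so its level is uncertain; Krt17 stood at 229 to 3180 CPM in stage means.

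Carcinoma in situ and invasive carcinoma were the only stages with the same letter in their sample codes, and none of the 6 keratins differed between them. By edgeR's quasi-likelihood test 0 of 17638 genes were called (0.0%), with 1259 at an unadjusted p under 0.05, and DESeq2 and limma-voom also called 0. For the 6 keratins the adjusted p was 0.761 to 0.953. The log2 differences of ICA from CIS had 95% intervals of -0.74 to 0.10 for Krt4, -0.37 to 0.24 for Krt13, -0.83 to 0.59 for Krt76, -0.56 to 1.25 for Krt1, -0.53 to 0.34 for Krt10 and -0.88 to 1.94 for Krt42.

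Oral against epidermal-type keratins, taken as sums, gave no separation of the stages. The sum of Krt4, Krt13 and Krt76 was 34429, 44108 and 52730 CPM in Normal, with medians of 40860 in HYP, 50415 in DYS, 32875 in CIS and 35202 in ICA. The sum of Krt1, Krt2 and Krt10 was 507, 581 and 600 CPM in Normal, with medians of 396, 724, 373 and 435 in the later stages. The ratio of the oral to the epidermal-type sum was 68.0, 75.9 and 87.9 in Normal, 80.8 to 156 in HYP (median 94.3), 40.7 to 121 in DYS (70.8), 47.8 to 140 in CIS (109) and 49.7 to 120 in ICA (90.7). The ranges of all 5 stages overlapped. The epidermal-type sum is mostly Krt10, which fell while Krt1 rose, so the ratio depends on which gene is used. Against Krt1 alone the oral sum was 3420 to 6664 in Normal and 114 to 557 in ICA. Against Krt10 alone Krt13 was 36.2 to 45.5 in Normal, 52.5 to 89.2 in HYP, 38.2 to 85.4 in DYS, 40.6 to 97.4 in CIS and 57.5 to 115 in ICA.

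**Figure D2:**
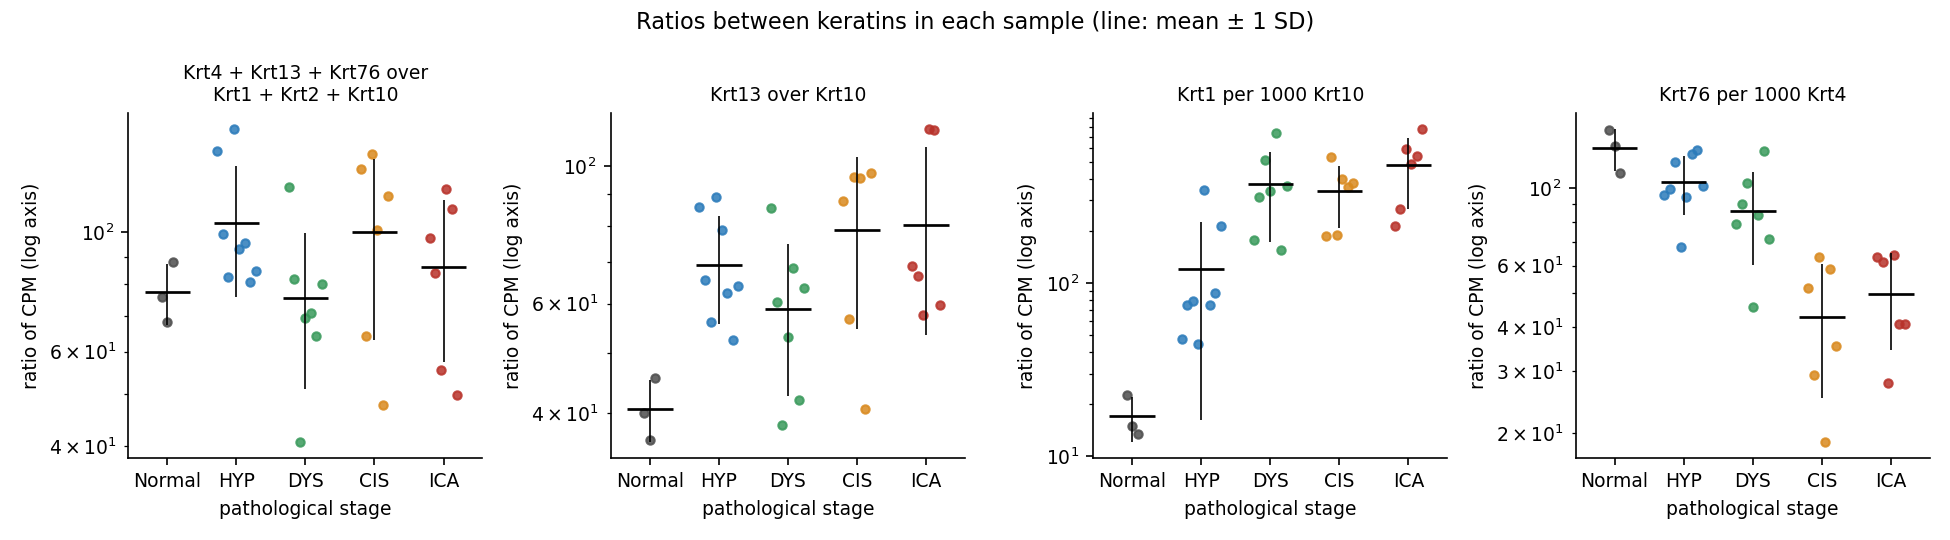
Ratios between keratins in the 30 samples by stage (log axes; points are samples, lines the mean and 1 SD). The ratio of the oral to the epidermal-type sum overlaps in all 5 stages, while Krt1 per 1000 Krt10 is 13.4 to 22.7 in Normal and 44.3 to 779 elsewhere, and Krt76 per 1000 Krt4 is at most 64.4 in carcinoma.

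As a share of all keratin counts, the 3 oral keratins were smaller and the injury and basal keratins larger in the later stages. Krt4, Krt13 and Krt76 made up 72.1 ± 1.4% (SD, n = 3) of keratin counts in Normal, 59.6 ± 6.3% (n = 8) in HYP, 57.2 ± 4.8% (n = 7) in DYS, 51.7 ± 9.0% (n = 6) in CIS and 43.5 ± 8.9% (n = 6) in ICA. All DYS (50.3 to 63.0%), CIS (43.1 to 62.7%) and ICA samples (30.04 to 53.9%) were below every Normal sample (70.9 to 73.7%). HYP sample A04, at 72.7%, was within the Normal range. The share of Krt6a, Krt6b and Krt16, which wounded and hyperproliferative epithelium makes, had stage means of 10.9% in Normal, 24.7% in HYP, 26.0% in DYS, 28.0% in CIS and 33.8% in ICA. That of the basal pair Krt5 and Krt14 was 5.79% in Normal, 7.48% in HYP, 7.72% in DYS, 11.6% in CIS and 14.0% in ICA. All keratins together were 5.59% of counts in Normal and 6.90 to 8.35% in the later stages, so the smaller share of the oral 3 went with more keratin counts in total. Shares of 1 total cannot move independently, and no test was run on them.

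**Figure D3:**
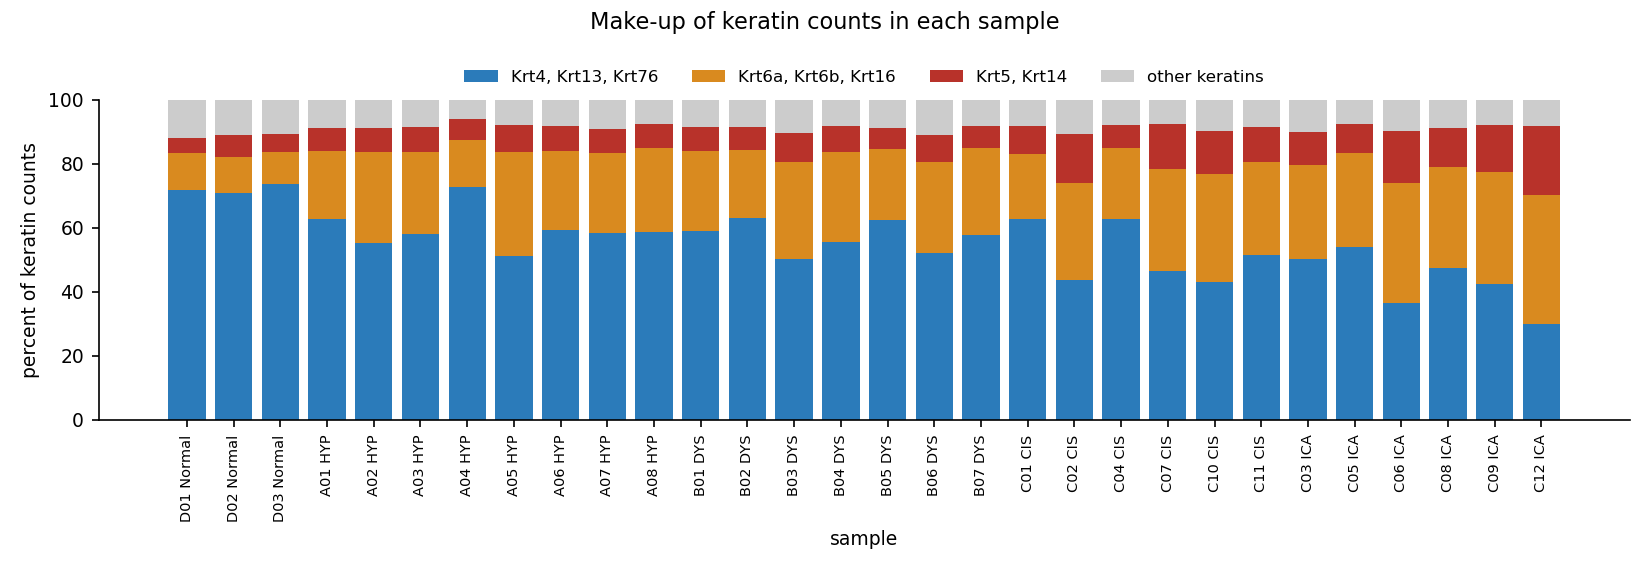
Make-up of the keratin counts of each sample in percent, ordered by stage. Krt4, Krt13 and Krt76 (blue) go from 70.9 to 73.7% in the Normal samples to 30.04 to 53.9% in the ICA samples, and Krt6a, Krt6b and Krt16 (orange) from 9.90 to 11.7% to 29.3 to 40.3%.

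Set against a basal keratin, all 3 oral keratins and Krt10 stood lower in carcinoma and Krt1 did not. For every CPM of Krt5 there were 9.96 ± 2.10 of Krt4 in Normal (SD, n = 3), 6.20 ± 1.14 in HYP (n = 8), 6.66 ± 1.05 in DYS (n = 7), 4.27 ± 1.87 in CIS (n = 6) and 2.998 ± 1.27 in ICA (n = 6). Krt13 relative to Krt14 went from 14.7 ± 2.6 in Normal to 3.85 ± 2.01 in ICA, although Krt13 itself was not called. Both basal keratins were themselves higher in ICA than in Normal, Krt14 by a log2 of 2.09 and Krt5 by 1.14 (edgeR adjusted p = 1.7e-05 and 9.7e-05). A keratin that stays level thus falls in these ratios. Per 100 of Krt5, Krt76 went from 130 ± 38 in Normal to 16.2 ± 10.3 in ICA and Krt10 from 29.6 ± 5.6 to 7.15 ± 2.94. Krt1 went from 0.52 ± 0.26 per 100 of Krt5 in Normal to 1.80 ± 1.37 in HYP, 6.56 ± 3.54 in DYS, 2.89 ± 1.37 in CIS and 3.004 ± 0.79 in ICA.

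Of 46 other keratin genes, 36 were tested. Against Normal, 6 were higher and 3 lower in HYP (all genes: 8.22% and 6.07%), 8 and 3 in DYS (13.3% and 12.4%), 8 and 10 in CIS (19.4% and 18.2%), and 9 and 15 in ICA (23.4% and 22.7%), with a median log2 difference in ICA of -0.81 against 0.02 over all genes. Those with the smallest p over the stages were Krt6b, Krt17, Krt16, Krt14, Krt90 and Krt5, which apart from Krt90 are keratins of wounded or basal epithelium. Krt90 averaged 8.58 CPM over all samples and rose by a log2 of 3.40 in ICA (edgeR adjusted p = 3.4e-05). Krt6b went from 1305 ± 355 CPM in Normal to 9442 ± 1806 in ICA (log2 2.86 ± 0.28, edgeR adjusted p = 1.1e-07), Krt17 from 229 ± 67 to 3180 ± 1154 (3.796 ± 0.50, 4.8e-06) and Krt14 from 1542 ± 212 to 6564 ± 2701 (2.09 ± 0.31, 1.7e-05). Krt24, a differentiation keratin on chromosome 11, fell by 1.42 ± 0.26 (adjusted p = 0.00012), and Krt78, the next keratin but 1 to Krt4 on chromosome 15, by 0.77 ± 0.29 (0.0283). Adjacent genes could move together in ICA, as Krt76 and Krt4 (both lower) and Krt14, Krt16 and Krt17 (all higher) did. Some genes near each other but not adjacent differed in direction. Krt1 rose and Krt76 fell, with Krt77 between them, and Krt36 fell by 1.19 ± 0.40 (adjusted p = 0.0161) and Krt14 rose, 5 places apart in their cluster with Krt13 in between. Krt36 was named after its values were seen.

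**Figure D4:**
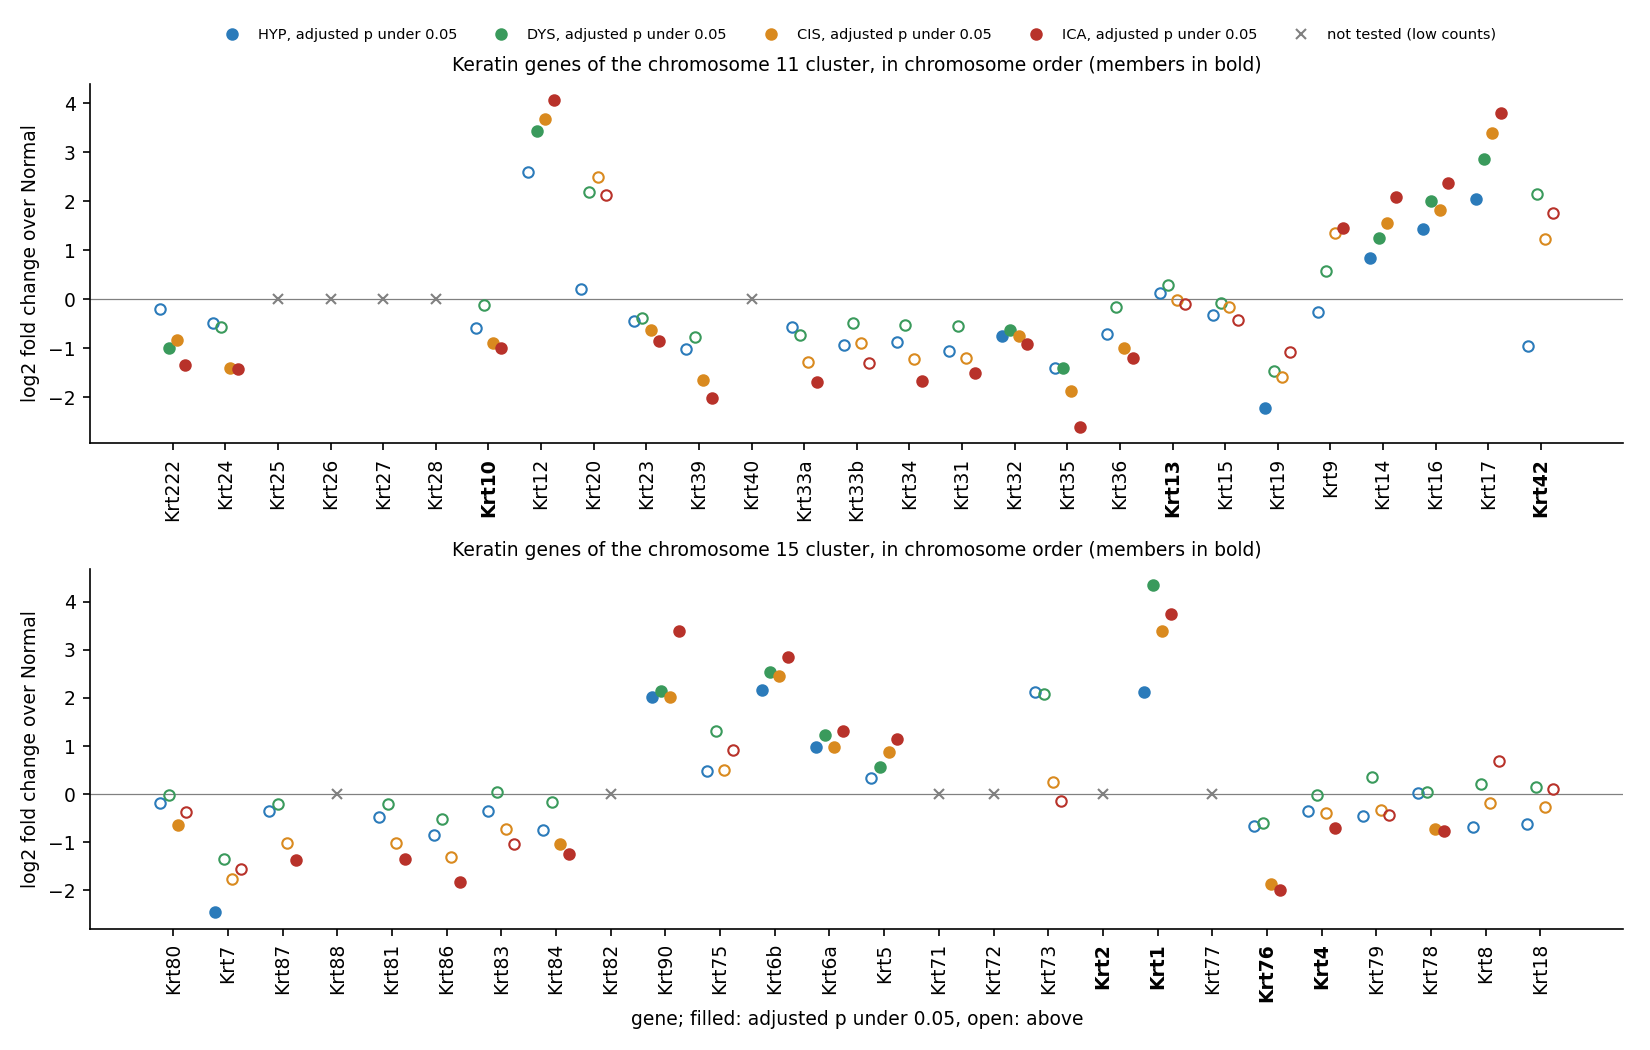
Log2 fold change over Normal of the keratin genes in the clusters on chromosomes 11 and 15, in chromosome order, with the 7 suprabasal keratins in bold (filled: adjusted p under 0.05; crosses: not tested). Krt1 at 2.13 to 4.34 and Krt76 at -0.60 to -1.99 have only the untested Krt77 between them, and Krt13 at -0.09 to 0.29 lies near 0.

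Genes that accompany oral lining differentiation were called in both directions, as all genes were. Of 15 tested, 2 were higher and 1 lower in HYP than in Normal (all genes: 8.22% and 6.07%), 4 and 2 in DYS (13.3% and 12.4%), 4 and 6 in CIS (19.4% and 18.2%), and 5 and 5 in ICA (23.4% and 22.7%), with a median log2 difference of 0.06 in ICA against 0.02 over all genes. Crnn (cornulin), a protein of squamous mucosa, fell from 329 ± 56 CPM in Normal to 65.9 ± 40.9 in ICA (log2 -2.32 ± 0.45, edgeR adjusted p = 0.00024, 6 of 6 below every Normal sample). Scel (sciellin), a precursor of the cornified envelope, fell by 0.75 ± 0.17 (adjusted p = 0.00064, 6 of 6). Emp1, a membrane protein, was lower already in HYP by 0.98 ± 0.16 (0.0002, 8 of 8). Endou rose by 1.70 ± 0.22 in ICA (3.4e-06), Tgm1, the transglutaminase that cross-links the envelope, by 1.11 ± 0.17 (1.6e-05), and Anxa1 (annexin A1) by 2.36 ± 0.36 (2.4e-05), each in 6 of 6 samples above every Normal sample. Without overlap, 17.2% of all genes lay above and 15.2% below Normal in ICA, and 5.52% lay below in HYP.

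Other genes of epidermal cornification were called in both directions in CIS and ICA. Of 19 tested, 1 was higher and 0 lower in HYP than in Normal (all genes: 8.22% and 6.07%), 2 and 0 in DYS (13.3% and 12.4%), 3 and 5 in CIS (19.4% and 18.2%), and 4 and 2 in ICA (23.4% and 22.7%), with medians of 0.05, 0.29, -0.42 and -0.04. Casp14, a protease of cornifying cells, was the 1 called in HYP and rose from 9.23 ± 1.80 CPM in Normal to 23.5 ± 3.8 in HYP (log2 1.34 ± 0.25, edgeR adjusted p = 0.00082) and to 32.0 ± 12.4 in ICA (1.79 ± 0.27, 1.8e-05). Krtdap, a secreted protein of differentiating keratinocytes, rose by 0.61 ± 0.18 in ICA (0.00566). Dsg1a went the other way and was lower than Normal in CIS and in ICA (edgeR adjusted p = 0.00802 and 0.00455). Its level was also lower than HYP in CIS (0.0098), and lower than DYS in CIS (0.0302) and in ICA (0.0101). Flg (filaggrin) was at 83.2 ± 51.0 CPM in Normal, 149 ± 42 in DYS and 49.1 ± 31.1 in ICA, with no call against Normal (adjusted p 0.195 to 0.755) and lower levels than in DYS, its highest stage, in CIS (-1.60 ± 0.40, 0.0248) and in ICA (-1.61 ± 0.40, 0.00848), and than in HYP in ICA (-1.03 ± 0.38, 0.0348). Hrnr (hornerin), of the same family, was not called against Normal (adjusted p 0.235 to 0.81) and was lower than in DYS in CIS (-0.85 ± 0.22, 0.0285) and in ICA (-0.64 ± 0.22, 0.0419).

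Among regulators of keratinocyte differentiation more were called higher than lower. Of 35 tested, 4 were higher and 0 lower in HYP than in Normal (all genes: 8.22% and 6.07%), 12 and 0 in DYS (13.3% and 12.4%), 13 and 1 in CIS (19.4% and 18.2%), and 14 and 1 in ICA (23.4% and 22.7%), with a median log2 difference of 0.21 in ICA against 0.02 over all genes. Elf3, an epithelial ETS factor, rose by a log2 of 1.53 ± 0.29 in ICA (edgeR adjusted p = 0.00017), Trp63, the factor of basal identity, by 0.84 ± 0.17 (0.00036), Vdr, the vitamin D receptor, by 0.87 ± 0.18 (0.00034) and Cebpa by 0.73 ± 0.13 (8.8e-05). The median summed level of the 10 keratinocyte markers, 5685 CPM in Normal and 8967 in ICA, moved the same way, and its part in these counts was not tested; Trp63 is in both lists.

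The genes whose levels followed each keratin most closely were found from Pearson's r of log2 CPM over the 30 samples, among genes averaging 1 CPM or more. They are given as a description, since stage and tissue make-up move many genes at once. Because they were picked over the same samples, their own differences between stages follow from the choice and are not separate evidence. Krt76 had the closest companions: Crnn (r 0.98, rho 0.97, and 0.97 after removing the stage means), Padi1, a deiminase of keratin and filaggrin (0.96), Tgm7, a transglutaminase (0.95), Cgn, the tight junction protein cingulin (0.95), and Cobl, an actin nucleator (0.94). Leaving out the 2 most extreme samples left the r of Krt76 with Crnn at 0.98. These 5 genes were all lower in ICA than in Normal, from Cobl at -0.84 ± 0.19 (edgeR adjusted p = 0.00069) to Crnn at -2.32 ± 0.45.

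Krt4 was followed by Ada, adenosine deaminase (r 0.88, and 0.91 after removing the stage means), Casz1, a zinc finger factor (0.86), Aox4, an aldehyde oxidase (0.85), Ppl, the desmosomal plakin periplakin (0.84), and Me1, malic enzyme (0.84). Ada went from 2304 CPM in Normal to 692 in ICA (log2 -1.74 ± 0.35, edgeR adjusted p = 0.00027). Krt13 was followed by Thop1, a peptidase (0.87), Lor, the envelope protein loricrin (0.85), Casz1 (0.83), Serpina9 (0.82) and Alox12b, a lipoxygenase of the skin barrier (0.82). Casz1 was thus among the 5 closest genes of both partners.

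The epidermal partners had different companions. Those of Krt1 were Hacd3, an enzyme of fatty acid elongation (0.86, and 0.67 within stages), Slc35f2 (0.86), Sprr2h, a small proline-rich envelope protein (0.86), Phgdh, which starts serine synthesis (0.85), and Slc5a1, a glucose transporter (0.85). Sprr2h went from 5.84 CPM in Normal to 217 in ICA (log2 5.21 ± 0.78, edgeR adjusted p = 2.5e-05). Within stages the r of Slc35f2, Sprr2h, Phgdh and Slc5a1 with Krt1 was 0.52 to 0.57, lower than for the 5 genes of Krt76, where it was 0.86 to 0.97. Those of Krt10 were Mical2 (0.86), Ankrd35 (0.81), Camkk1 (0.81), Dlx3, a homeobox factor of epidermis and hair (0.79), and Crybg2 (0.79). Those of Krt42 were led by Tcf7 (0.77, and 0.78 within stages), Stac2 (0.76, and 0.63) and Bmp7 (0.75, and 0.60).

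**Figure D5:**
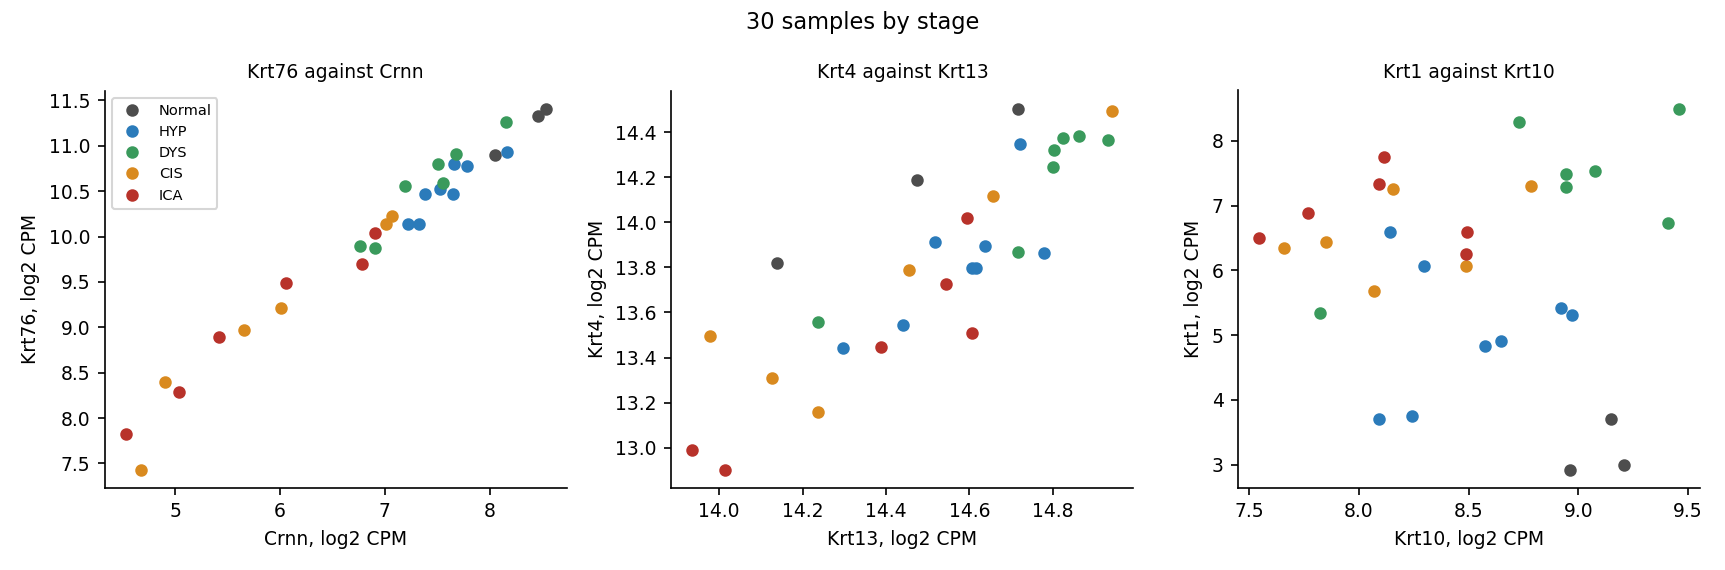
Log2 CPM of Krt76 against Crnn, Krt4 against Krt13 and Krt1 against Krt10 in the 30 samples, coloured by stage. Krt76 and Crnn lie on 1 line through all stages (r 0.98), Krt4 and Krt13 rise together (r 0.85), and Krt1 and Krt10 do not (r -0.06).

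Among the other summed or averaged markers, Krt1 moved with both the keratinocyte score (r 0.74 over 30 samples, 0.58 within stages) and the leukocyte score (0.75, and 0.31 within stages) and against the muscle score (-0.74, and -0.52 within stages). Krt76 moved against the leukocyte score (-0.71, and -0.44 within stages). Krt13 went with the score of epidermal cornification genes (0.73, and 0.69 within stages) and with that of oral lining genes (0.71, and 0.73). For Krt1 the r with the cornification score was 0.06. These correlations are descriptions over samples that share libraries and differ in tissue make-up, and the part of tissue make-up in them was not tested.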

How the data were processed

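Polyadenylated RNA of 30 samples was sequenced after a stranded library preparation, per the labels' protocols. The authors deposited raw read counts per gene. The submitters' processing notes name cutadapt 2.4, the aligner STAR 2.7.2a and the build GRCm38. How reads were assigned to genes, with or without strand, and what was done with reads that fit several genes, is not given in the sources used here. Symbols came from GENCODE M21, which matched 55227 of 55487 identifiers (99.53%). CPM were computed with edgeR's TMM factors (0.892 to 1.06).

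Genes passing edgeR's filterByExpr (17638) were tested in 1 fit of all 30 samples with a mean per stage, using edgeR 4.0.16's robust quasi-likelihood test (2-sided, Benjamini-Hochberg adjustment over all genes in each of 10 comparisons, R 4.3.3). Recovery of known changes was tested on simulated data. Replicates varied by 24% beyond counting noise (common dispersion 0.0576). Standard errors were the log2 fold change over the root of the F statistic, and intervals cover 95%. Stages came from the pathological stage label. Alternatives were DESeq2 1.42.0, limma 3.58.1 (voom with sample weights), RLE scaling, no filter on low counts, fits of the compared stages alone, marker scores as covariates, the code number as a block, and each sample left out; 2 sets of samples left out together were chosen after seeing the data.

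The keratins, gene lists and markers were chosen with earlier results of these data known. The text names the 7 keratins, from each list up to 6 genes with the smallest p over all stages and up to 4 per comparison, and for each keratin the 5 genes of highest r (log2 CPM with a prior count of 2). Among 82 pairs of samples within a stage, the lowest chi-square per degree of freedom was 10.3, so none were duplicates within sampling noise. Antisense or overlapping genes held 65 counts against 836949 for Krt76 and 120 against 258903 for Krt10. Values of some genes in the lists are not reported here.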

Additional observations from a re-analysis of the deposited data

Results flagged for a closer look

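A single sample stood apart from the rest of its stage, by Dixon's ratio of the gap to the range, in 4 of 40 groups of levels examined; chance gives this in about 1 of 20. For Krt4 it was HYP sample A04, at 20875 CPM with the next sample at 15424 (ratio 0.559 against a critical value of 0.526). The same sample had the highest share of oral keratins in HYP, 72.7% of keratin counts. For Krt13 it was DYS sample B01, at 19303 CPM with the next at 26901 (0.635 against 0.568). For Krt42 it was DYS sample B06, at 108 CPM with the next at 20.7 (0.836 against 0.568), and CIS sample C10, at 41.5 CPM with the next at 13.2 (0.723 against 0.625).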

How the results depend on the processing

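Of the log2 differences of single keratins from Normal, and of those called between other stages, recomputed under the alternatives, 1400 kept their direction and side of the threshold, 88 lost the call, 3 gained one and 26 changed sign; of the counts of keratins called, 407 were within 1.5 times of the reported count and 42 were not. The 5 stage medians of the oral to epidermal-type ratio moved by less than 1 SD in each of 30 recomputations that left out 1 sample of the stage; the other ratios and shares were not recomputed. With the muscle score as a covariate, 3 of 6 keratins were called over all stages, 1 in DYS against HYP, 0 in CIS against HYP and 0 in ICA against HYP. With the keratinocyte score the counts were 3, 1, 0 and 0, with 1 in CIS and 1 in ICA against Normal. Over all genes, ICA against Normal went from 8127 calls to 2061 and 1155 with these scores, and DYS against Normal from 4540 to 791 and 1214. Without the filter on low counts, 0 were called in HYP against Normal, 1 in CIS against HYP and 0 in CIS against DYS. In fits of the 2 stages alone, 2 were called in HYP against Normal (Krt76 and Krt10, in place of Krt1) and 0 in CIS against DYS. DESeq2 called 2 in DYS against Normal, adding Krt42 (adjusted p = 0.0392); limma-voom also called Krt10 in DYS (0.49, adjusted p = 0.0352) and in ICA (-0.54, 0.0312) against HYP, and Krt10 in DYS against HYP was also called without D01, B01 and C12 (0.61, 0.0335) and without the 7 samples rich in salivary transcripts (0.58, 0.0425).

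The code numbers are shared between stages but were not taken to pair samples: r between same-numbered samples was -0.564 to 0.512 (31 pairs, median 0.0489), and 3 of 30 samples matched their own number best. With the number as a replicate block, the keratins called were 2 over all stages, 0 in HYP and 2 in ICA against Normal, 1 in CIS and 0 in ICA against HYP, and 0 in CIS and 0 in ICA against DYS; over all genes, ICA against DYS went from 3455 calls to 8 and ICA against HYP from 6768 to 1684. Numbers 9, 10, 11 and 12 occur in 1 sample each (C09, C10, C11 and C12), so under the block those samples do not inform the stage differences. CIS and ICA share no number. The block thus compares fewer samples, and the part of this in the lost calls was not tested. Under the block Krt4 in DYS against Normal was 0.047, Krt13 in CIS against Normal 0.055 and Krt42 in CIS against Normal -0.14.

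Leaving out 1 sample at a time gave 0 to 1 keratins in HYP against Normal, 1 to 3 in DYS and 1 to 3 in CIS against HYP, 0 to 2 in CIS and 2 to 4 in ICA against DYS, 3 to 4 in ICA against Normal and 4 to 5 over all stages. Signs changed only in differences that were not called. Against Normal, with 1 sample left out, Krt4 in DYS was -0.17 to 0.17, Krt13 -0.032 to 0.25 in HYP, -0.16 to 0.13 in CIS and -0.22 to 0.062 in ICA, and Krt10 in DYS -0.22 to 0.010. With the muscle score Krt4 in DYS was 0.20, Krt13 in CIS 0.036 and in ICA 0.0061, and Krt42 -0.14 in DYS, -0.44 in CIS and -0.47 in ICA. With the keratinocyte score Krt4 in DYS was 0.14 and Krt42 -0.55 in CIS and -0.46 in ICA. Without D01, B01 and C12, or without the 7 samples rich in salivary transcripts, Krt4 in DYS was 0.074 and 0.074 and Krt10 in DYS 0.034 and 0.034, and Krt4 in ICA was -0.63 and -0.67 (adjusted p = 0.0753 and 0.0506). The cause of these changes was not tested. Of the 7 keratins, Krt2 alone had too few counts to be tested.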
